A study of Bos taurus with 15 samples.

Results

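Fibroblast growth factor (FGF) signalling was examined in bovine blastocysts through 10 genes, namely the ligand FGF4, the receptors FGFR1, FGFR2, FGFR3 and FGFR4, the inhibitors SPRY4, SPRED2 and DUSP6, and the transcription factors ETV4 and ETV5. The genes were taken by symbol, through their NCBI gene identifiers, from 34773 counted genes. Of the 10 genes, 9 were among the 10832 genes that the authors kept after a filter on low counts and were tested, and FGF4 was below that filter. The embryos were produced in vitro and cultured for 7 days according to the sample labels, without oviductal extracellular vesicles (Co), with freshly isolated oEVs (FeEV) or with frozen-thawed oEVs (FoEV). The oEVs came from oviducts of cows in the postovulatory stage collected at a slaughterhouse. Each of the 15 libraries, 5 per treatment, was made from 1 ng of total RNA of a pool of 8 to 14 embryos, so every value is an average over whole embryos and over the cell lineages within them.

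In the mouse, FGF signalling divides the inner cell mass of the blastocyst into epiblast, which forms the embryo proper, and hypoblast, which lines the yolk sac. Its part in this division in bovine embryos was not tested here. FGF4 is secreted by epiblast cells and bound by FGF receptors with heparan sulfate as a cofactor, and the activated receptor passes the signal through FRS2, GRB2 and RAS to the kinase ERK. ERK then turns on ETV4 and ETV5 as well as its own inhibitors, with SPRY4 and SPRED2 acting on the steps up to RAF and DUSP6 removing the phosphate from ERK itself. The mRNA levels of these feedback genes are therefore widely used as a readout of pathway activity.

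The libraries held 2136713 to 4058887 counts on genes, and every FoEV library (3392613 or more) was deeper than every Co library (2977004 or fewer). Defining markers of the blastocyst lineages were present in all 15 libraries, with GATA3 of the trophectoderm between 192 and 254 CPM, GATA6 of the hypoblast between 344 and 483 CPM and NANOG of the epiblast between 22.7 and 93.4 CPM (counts per 1000000 counts on genes, scaled by TMM factors). Of the markers of cells that could be carried over, PTX3 of cumulus cells was at 0 in 14 libraries and OVGP1 of the oviduct epithelium did not exceed 1.5 CPM, but others were detected. CYP19A1, FSHR and STAR of the 8 cumulus markers and MUC16 and PAX8 of the 6 oviduct markers were in the filtered table. The lists summed to 29.7 to 46.3 CPM (cumulus) and 16.7 to 36.5 CPM (oviduct) in Co, 32.5 to 50.8 and 14.1 to 18 CPM in FeEV, and 31.9 to 50.9 and 14.7 to 37.6 CPM in FoEV, and their part in the levels below was not tested. No source states that the pools of a treatment came from separate culture batches, and the p-values measure the spread between these pools.

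FGF4 mRNA was at the limit of detection. It had 0, 0, 0, 0 and 1 read in the 5 Co libraries, 1, 1, 1, 1 and 2 reads in the FeEV libraries and 0 reads in each FoEV library. All of these values lie under the floor of 3 reads per library, and no fold change is given. Over a treatment, 6 of 14951741 reads in FeEV correspond to 0.396 CPM (95% exact Poisson interval 0.145 to 0.861), against 0.0721 (0.00183 to 0.402) for the 1 read in Co. The 0 of 18754667 reads in FoEV allow up to 0.16 CPM by the rule of 3 counts, or 0.197 as the upper limit of the exact interval. The intervals of all 3 treatments overlap and cover counting error only.

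A two-sided exact permutation test of log2(CPM + 1) gave p = 0.00794 for FGF4 in FoEV vs. FeEV treatment, which is the smallest value that 5 libraries against 5 allow, p = 0.0317 for FeEV treatment vs. Co and p = 1.0 for FoEV treatment vs. Co. Adjusted over these 3 comparisons of FGF4, the permutation p were 0.0238, 0.0476 and 1.0, with 5 of 5 FeEV libraries above every FoEV library and 4 of 5 Co libraries at 0. This adjustment covers 3 tests only, whereas the edgeR adjusted p of the other genes cover all genes of the fit. Of the 10832 genes above the filter, 1.5% separated completely between oEV treatments, but how many genes with so few reads do so was not counted. The ligand gene FGF11, also at few reads, had reads in every FeEV library and in no Co library. Its edgeR adjusted p for FeEV treatment vs. Co was 0.724 in a fit of all genes with at least 1 read. The permutation test of FGF4 rests on 1 or 2 reads per library, and the size of a difference in FGF4 level could not be measured at this depth.

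None of the other 21 FGF ligand genes passed the authors' filter either. Reads were found for 20 of them in at least 1 library, and 1 had more than 3 reads in every library, FGF12 (fibroblast growth factor 12, an intracellular family member that is not secreted), with 1.09 to 4.05 CPM. Among the secreted ligands, FGF2 had 3 to 11 reads per library, and its mean was 3.1 CPM in Co, 2.12 in FeEV and 2.34 in FoEV. FGF9 had 1.59 to 3.66 CPM in Co, 0.62 to 2.21 in FeEV and 0.00 to 1.89 in FoEV. In a fit of all genes with at least 1 read, FGF9 had a log2 fold change of -1.52 for FoEV treatment vs. Co (edgeR unadjusted p = 0.00768, adjusted p = 0.242), which did not pass. FGF11, another intracellular member, had the smallest p of the ligands, for FeEV treatment vs. Co (edgeR unadjusted p = 0.00401, adjusted p = 0.724). It had 4, 1, 2, 1 and 1 reads in FeEV, 2, 1, 0, 0 and 1 in FoEV and 0 in every Co library, so all libraries but FeEV replicate 1 were under the floor of 3 reads. No ligand gene exceeded 12 reads in any library.

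The 4 FGF receptor genes, which encode the receptor tyrosine kinases of the pathway, were all detected in all 15 libraries, and their levels differed between treatments by less than the spread between libraries. FGFR4 had 95.7, 59.8, 69.3, 81.9 and 71.5 CPM in Co, 73.8, 58.1, 58.2, 78.0 and 65.0 in FeEV and 69.0, 86.5, 76.4, 66.1 and 61.0 in FoEV. The treatments overlapped throughout, with Co replicate 1 as the highest library. FGFR3 had 69.7, 45.8, 54.3, 51.3 and 43.1 CPM in Co, 45.8, 60.0, 49.6, 56.8 and 56.4 in FeEV and 38.3, 49.7, 61.7, 60.8 and 51.6 in FoEV. Its 3 means, 52.8 ± 10.4, 53.7 ± 5.84 and 52.4 ± 9.54 CPM (SD, n = 5), were the closest of the tested genes, and the largest of its 3 differences was 0.04 on the log2 scale.

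FGFR2, the receptor whose splice forms bind different FGFs, was measured as the sum of its forms, since the counts are per gene. It had 10.1, 14.0, 9.58, 11.5 and 11.8 CPM in Co, 11.5, 6.99, 9.29, 12.2 and 9.41 in FeEV and 10.8, 12, 14.5, 6.61 and 9.72 in FoEV. In 3 of 5 FeEV libraries it lay below every Co library, whereas the FoEV libraries spread over and beyond the whole Co range. FGFR1, a receptor that the mouse inner cell mass requires, had 7.58, 4.34, 6.07, 3.98 and 4.88 CPM in Co, 6.49, 3.31, 4.03, 5.41 and 4.43 in FeEV and 6.19, 9.74, 5.46, 5.62 and 3.24 in FoEV. These values correspond to 9 to 39 reads per library, and FoEV held both the highest and the lowest library.

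The difference between FoEV and Co was -0.07 on the log2 scale for FGFR4 (95% interval -0.34 to 0.19, edgeR adjusted p = 0.819), -0.02 for FGFR3 (-0.31 to 0.27, adjusted p = 0.967), -0.08 for FGFR2 (-0.51 to 0.35, adjusted p = 0.883) and 0.17 for FGFR1 (-0.43 to 0.78, adjusted p = 0.81). In FeEV treatment vs. Co the edgeR adjusted p was 1.0 for each receptor, and the differences were -0.18 for FGFR4 (-0.45 to 0.08), 0.02 for FGFR3 (-0.27 to 0.31), -0.21 for FGFR2 (-0.65 to 0.23) and -0.18 for FGFR1 (-0.82 to 0.45). Over all 3 comparisons, the intervals of FGFR3 and FGFR4 lay between -0.45 and 0.38, whereas those of FGFR1 reached from -0.82 to 0.96.

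The makeup of the receptor reads overlapped between treatments as well. Of the 323 to 632 reads per library on the 4 receptor genes, FGFR4 took 52.0% ± 2.95 in Co, 49.2% ± 3.23 in FeEV and 50.9% ± 3.86 in FoEV (mean ± SD, 5 libraries each). FGFR3 took 36.3% ± 2.56, 40.0% ± 5.04 and 37.2% ± 5.79, FGFR2 8.09% ± 2.2, 7.29% ± 1.15 and 7.58% ± 1.71, and FGFR1 3.68% ± 0.655, 3.49% ± 0.778 and 4.25% ± 1.39. Transcript lengths were not at hand, so these shares compare treatments and do not rank the receptors by mRNA level.

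**Figure D1:**
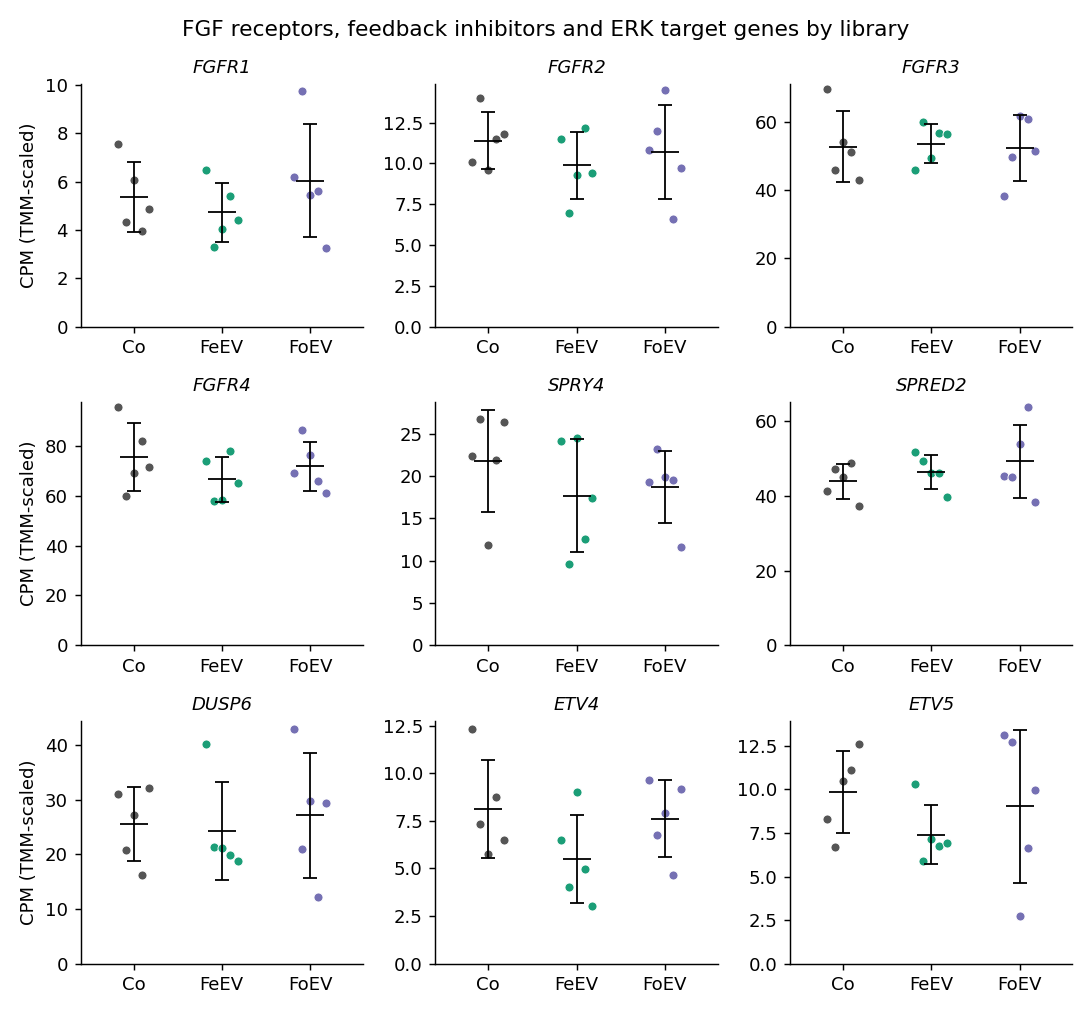
Levels of the 9 tested genes in TMM-scaled CPM (vertical axis, from 0) in each library of the 3 treatments (horizontal axis). Points are libraries in the order of their replicate numbers, and bars are the mean ± SD (n = 5). The treatments overlap in every panel, and DUSP6 in FeEV has 1 library at 40.2 CPM above 4 libraries between 18.8 and 21.3 CPM.

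Of the inhibitors, SPRY4 and DUSP6 varied more between libraries than the receptors FGFR3 and FGFR4, and the treatments overlapped for all 3 inhibitor genes. SPRY4, a Sprouty protein that blocks the signal between receptor and RAF, had 22.4, 26.7, 11.8, 21.9 and 26.4 CPM in Co, 24.2, 9.56, 24.5, 12.6 and 17.4 in FeEV and 19.3, 23.2, 19.9, 19.5 and 11.6 in FoEV. Each treatment held at least 1 library at 11.8 CPM or lower and others above 19 CPM. DUSP6, the phosphatase that inactivates ERK, had 31.1, 20.7, 27.2, 16.3 and 32.1 CPM in Co, 40.2, 21.3, 21.1, 19.8 and 18.8 in FeEV and 42.9, 21.0, 29.7, 12.2 and 29.4 in FoEV. Its highest library was 3.51 times its lowest, and both were FoEV libraries.

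SPRED2, a Sprouty-related protein that inhibits RAS signalling at the membrane, was the steadiest of the inhibitors. It had 41.2, 47.1, 45.0, 48.9 and 37.4 CPM in Co, 51.7, 49.3, 46.2, 46.0 and 39.6 in FeEV and 45.4, 45.0, 53.8, 63.8 and 38.3 in FoEV. In 2 of 5 libraries of each oEV treatment SPRED2 lay above every Co library, and the others lay within the Co range.

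For FoEV treatment vs. Co the log2 fold change was -0.22 for SPRY4 (95% interval -0.74 to 0.31, edgeR adjusted p = 0.711), 0.10 for DUSP6 (-0.52 to 0.72, adjusted p = 0.897) and 0.16 for SPRED2 (-0.11 to 0.43, adjusted p = 0.58). For FeEV treatment vs. Co it was -0.28 for SPRY4 (-0.81 to 0.25), -0.06 for DUSP6 (-0.7 to 0.57) and 0.08 for SPRED2 (-0.19 to 0.35), with an edgeR adjusted p of 1.0 for each. None of these differences was larger than the spread between libraries.

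ETV4 and ETV5, ETS-family transcription factors whose genes are induced by ERK, had the largest differences among the tested genes in FeEV treatment vs. Co, and these differences did not pass the test. ETV4 had 12.3, 7.35, 5.75, 8.75 and 6.5 CPM in Co, 6.49, 4.05, 8.99, 4.96 and 3.04 in FeEV and 9.63, 6.75, 7.91, 4.63 and 9.18 in FoEV. In 3 of 5 FeEV libraries ETV4 lay below every Co library, while 2 FeEV libraries lay within the Co range. ETV5 had 8.31, 6.68, 10.5, 11.1 and 12.6 CPM in Co, 10.3, 5.89, 7.13, 6.77 and 6.92 in FeEV and 13.1, 12.7, 2.73, 6.61 and 9.99 in FoEV. The FoEV libraries of ETV5 included both its highest and its lowest value, the lowest from 10 reads.

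ETV4 was at 5.51 ± 2.32 CPM in FeEV and 8.13 ± 2.57 in Co (mean ± SD, 5 libraries each), a log2 fold change of -0.55 (95% interval -1.17 to 0.07, edgeR unadjusted p = 0.0784, adjusted p = 1.0). Compared with FeEV libraries, ETV4 was 0.47 higher in FoEV libraries (-0.13 to 1.07, edgeR adjusted p = 0.647). For ETV5 the log2 fold change was -0.39 for FeEV treatment vs. Co (-1.04 to 0.25, edgeR adjusted p = 1.0) and 0.29 for FoEV vs. FeEV treatment (-0.34 to 0.92, edgeR adjusted p = 0.789). Both genes were close to Co in FoEV-treated embryos, at -0.08 for ETV4 (-0.66 to 0.51, edgeR adjusted p = 0.921) and -0.10 for ETV5 (-0.72 to 0.52, edgeR adjusted p = 0.899).

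Over the 3 comparisons, 0 of the 9 tested genes passed an adjusted p under 0.05 in the quasi-likelihood test of edgeR, and 0 reached an unadjusted p under 0.05. DESeq2 (Wald test) and the robust dispersion test named in the study's methods called 0 of the 9 as well. Of all 10832 genes, these 2 tests called 138 and 311 for FoEV treatment vs. Co, 1 and 6 for FeEV treatment vs. Co and 3 and 31 between oEV treatments. In the quasi-likelihood test, 0.00923% of all 10832 genes passed after adjustment when FoEV was compared with Co, and 0% did when FeEV was compared with Co or with FoEV. At the unadjusted threshold it was 15.1% of all genes for FoEV treatment vs. Co, 4.15% for FeEV treatment vs. Co and 8.52% between oEV treatments. Levels did not separate completely between treatments for any of the 9 genes (0 in each comparison), beside 2.59%, 0.951% and 1.5% of all genes in the same order. Between oEV treatments, the differences of the receptors and inhibitors lay between -0.04 (FGFR3) and 0.36 (FGFR1), with edgeR adjusted p from 0.724 to 0.958.

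The mean was lowest in FeEV for 7 of the 9 genes (FGFR1, FGFR2, FGFR4, SPRY4, DUSP6, ETV4 and ETV5), in FoEV for FGFR3 and in Co for SPRED2. Among all tested genes the mean was lowest in FeEV for 28%, in Co for 36.1% and in FoEV for 35.9%. Neighbours in this order did not differ beyond their spread for any of the 9 genes. In FoEV vs. Co, 3 of the 9 differences were above 0 and 6 below, with a median log2 fold change of -0.07, against 52.3% above and 47.7% below and a median of 0.01 over all genes. In FeEV vs. Co, 2 were above 0 and 7 below with a median of -0.18, against 51% above and 49% below and a median of 0 over all genes. Between oEV treatments, 8 were above 0 and 1 below with a median of 0.13, against 51.8% above and 48.2% below over all genes. The comparisons share the Co or the FeEV libraries and are not independent of each other.

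**Figure D2:**
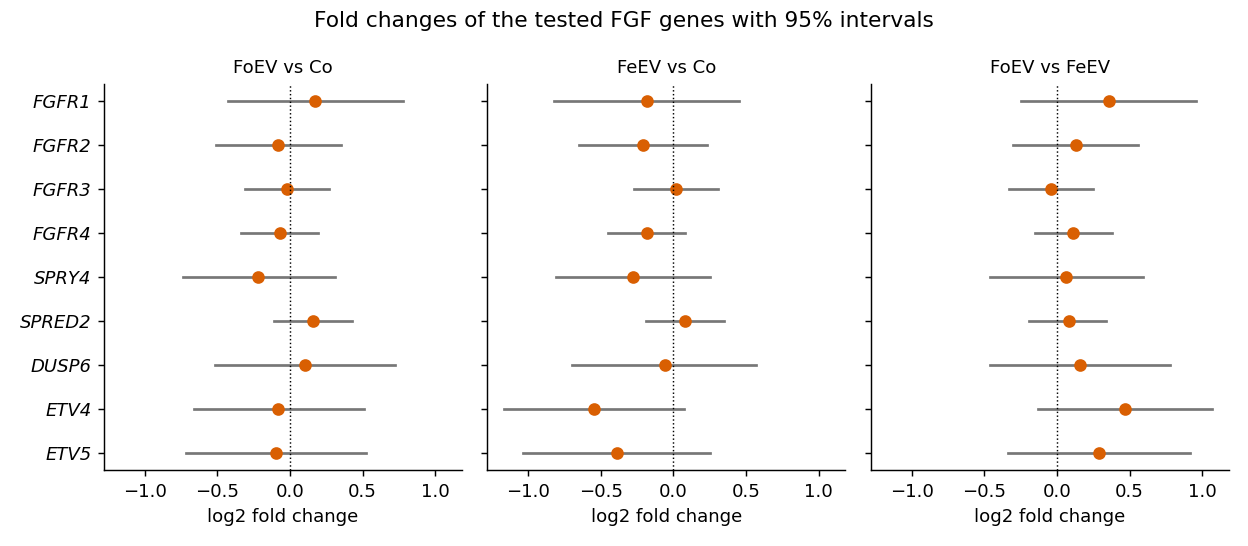
Log2 fold changes (horizontal axis) of the 9 tested genes in the 3 comparisons, with points for the edgeR estimate and lines for its 95% interval. Every interval includes 0, and they are narrowest for SPRED2, FGFR3 and FGFR4 and widest for ETV4, ETV5, FGFR1 and DUSP6.

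How far the data limit a change in each gene depended on both its reads and its spread. Within treatments, the coefficient of variation was 15.5% for FGFR4, 16.7% for FGFR3 and 14.6% for SPRED2, which had median counts of 217, 167 and 142 reads per library. DUSP6 varied by 36.1%, although counting alone would give 12% over its read counts in the 15 libraries (median 79), and SPRY4 by 29.7% against 13.7% from counting. ETV4, ETV5 and FGFR1 had median counts of 22, 25 and 16 reads, and counting error accounted for 22.9%, 20.8% and 25.8% beside observed values of 32.7%, 34.6% and 32.6%. The biological coefficient of variation estimated for DUSP6 was 0.286, above the 0.168 of genes of the same abundance, and that of SPRY4 was 0.253 beside 0.184. For FGFR2 it was 0.169 beside 0.22, so this receptor varied less than the trend for its level.

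**Figure D3:**
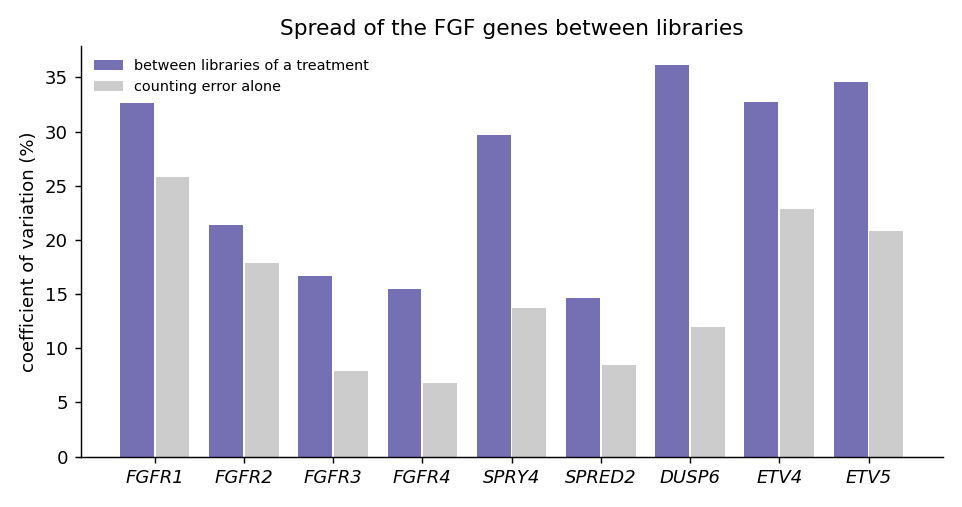
Coefficient of variation in percent (vertical axis, from 0) of the 9 tested genes, between libraries of the same treatment (purple, pooled over 3 treatments of n = 5) and expected from counting reads alone (grey). DUSP6 shows the largest gap, 36.1% beside 12%, and FGFR2 the smallest, 21.4% beside 17.9%.

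Whether the feedback genes moved together from pool to pool was described by the correlation of log2(CPM + 1) after removing the treatment means, over 15 libraries, 5 of each treatment, that differ in depth. The 6 pairs among SPRY4, DUSP6, ETV4 and ETV5 had Pearson r between 0.06 (SPRY4 and DUSP6) and 0.49 (DUSP6 and ETV4), and 7.19% of all pairs of tested genes exceeded the latter. ETV4 and ETV5 had an r of 0.12. SPRED2 had r of 0.13 with SPRY4, -0.17 with ETV4, -0.41 with ETV5 and -0.42 with DUSP6, so the signs were mixed once this inhibitor was included. The highest r among the 36 pairs of the 9 genes was 0.73, between FGFR1 and FGFR4, and the lowest was -0.62, between FGFR3 and ETV5. Of all gene pairs, 0.7% exceeded the former and 2.44% were below the latter, and the median over the 36 pairs was 0.12.

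For FGFR2, DUSP6 and ETV5, the most similar genes were looked up. Among all tested genes, the levels over the 15 libraries most like those of DUSP6 were those of CHCHD5 (Pearson r = 0.88), MOB2 (0.84) and CCNL1 (0.81). For ETV5 they were those of RAC2 (0.89), NECTIN3 (0.85) and LMO7 (0.85), and for FGFR2 those of AHSA2 (0.84), LOC101902612 (0.83) and DGKQ (0.81). CCNL1 encodes cyclin L1 of the splicing machinery, RAC2 a small GTPase, NECTIN3 an adhesion molecule and DGKQ a diacylglycerol kinase. These are the highest values among 10831 genes each, over 15 libraries, and are given as a description.

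The rest of the pathway was followed through 116 further genes in lists by role, of which 75 were in the filtered table. In FoEV treatment vs. Co, 0 of the 75 had an edgeR adjusted p under 0.05, and 14 had an unadjusted p under 0.05 (6 higher and 8 lower), beside 15.1% of all genes (8.18% higher and 6.88% lower). In FeEV treatment vs. Co, 0 passed the adjusted threshold and 5 had an unadjusted p under 0.05 (1 higher, 4 lower), beside 1.83% of all genes higher and 2.32% lower. Between oEV treatments these numbers were 0 and 7 (2 higher and 5 lower in FoEV), beside 4.83% higher and 3.69% lower. The median log2 fold changes were -0.08, -0.03 and 0, in the same order. For FoEV treatment vs. Co, the robust dispersion test called 6 of the 75, namely ETS2, NDST2, SHOC2, HS2ST1, FLRT3 and FRS2 (adjusted p 0.022 to 0.0456). The same test called 311 of all 10832 genes.

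Heparan sulfate, the sugar chain without which FGFs bind their receptors poorly, and the coreceptors were covered by 19 tested genes. In FoEV treatment vs. Co, 10 were higher and 9 lower, and 5 had an unadjusted p under 0.05. NDST2, which adds sulfate to nitrogen in the chain, had 14.8, 12, 13.1, 12.3 and 13.8 CPM in Co, 18.3, 21.0, 18.3, 18 and 15.2 in FeEV and 14.4, 21.7, 18, 25.5 and 21.3 in FoEV. All 5 FeEV libraries and 4 of 5 FoEV libraries lay above every Co library, beside 0.951% of all genes without overlap in FeEV treatment vs. Co. The log2 fold changes of NDST2 were 0.60 for FoEV treatment vs. Co (SE 0.16, edgeR adjusted p = 0.123) and 0.45 for FeEV treatment vs. Co (SE 0.17, edgeR adjusted p = 1.0). NDST1, which carries out the same step, differed by 0.28 for FeEV treatment vs. Co (SE 0.14, edgeR adjusted p = 1.0).

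FLRT3, a membrane protein that binds FGF receptors and promotes their signal, had 71.9, 108, 59.7, 108 and 75.6 CPM in Co, 64.4, 61.4, 58.2, 74.0 and 79.7 in FeEV and 31.9, 59.0, 58.9, 57.5 and 61.0 in FoEV. In FoEV 4 of 5 libraries lay below every Co library, with a log2 fold change of -0.66 (SE 0.18, edgeR adjusted p = 0.135). FLRT3 passed the adjusted threshold in the fit without a filter on low counts (edgeR adjusted p = 0.000118), in the robust dispersion test of the study's methods (adjusted p = 0.0282) and in the Wald test of DESeq2 (adjusted p = 0.0339). Over all genes, 173 of 25470, 311 of 10832 and 138 of 10832 passed in these fits, in the same order. KLB, the coreceptor for hormone-like FGFs, differed by -1.14 between oEV treatments (SE 0.54, edgeR unadjusted p = 0.0499, adjusted p = 0.578) at 0.661 to 13.9 CPM. GPC1, a heparan sulfate proteoglycan, was at 29.8 ± 4.17 CPM in FoEV and 24.5 ± 3.46 in FeEV (SD, n = 5; edgeR adjusted p = 0.602).

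Of the adaptors and kinases from the receptor to ERK, 25 genes were tested, 8 higher and 17 lower in FoEV than in Co with a median log2 fold change of -0.08. FRS2, the docking protein that FGF receptors phosphorylate, had 45.9, 47.1, 63.6, 55.3 and 52.4 CPM in Co, 54.3, 42.3, 51.1, 46.5 and 41.2 in FeEV and 35.3, 53.5, 36.6, 38.4 and 33.8 in FoEV. Apart from FoEV replicate 2, the FoEV libraries lay below every Co library, and the log2 fold change was -0.42 (SE 0.13, edgeR adjusted p = 0.165). Without FoEV replicate 2, it was -0.56 (edgeR adjusted p = 0.0416), in a fit where 58 of all 10832 genes passed.

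NRAS, a RAS protein, had 156, 162, 164, 160 and 182 CPM in Co, 173, 160, 164, 165 and 177 in FeEV and 127, 153, 147, 120 and 145 in FoEV. All FoEV libraries lay below all Co and all FeEV libraries, a separation seen for 2.59% and 1.5% of all genes, with log2 fold changes of -0.25 (SE 0.08, edgeR adjusted p = 0.181) and -0.28 (SE 0.08, edgeR adjusted p = 0.453). GRB2, the adaptor that brings the RAS activator SOS to the receptor, had 48.4 to 55.5 CPM in FeEV and 57.0 to 91.6 in FoEV without overlap (1.5% of all genes), and 50.8 to 59.8 CPM in Co. Between oEV treatments it differed by 0.33 (SE 0.12, edgeR adjusted p = 0.496). In FeEV treatment vs. Co, the smallest p belonged to PLCG1 (log2 fold change -0.25, edgeR unadjusted p = 0.087) and ARAF (0.18, edgeR unadjusted p = 0.197), and neither was below 0.05.

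**Figure D4:**
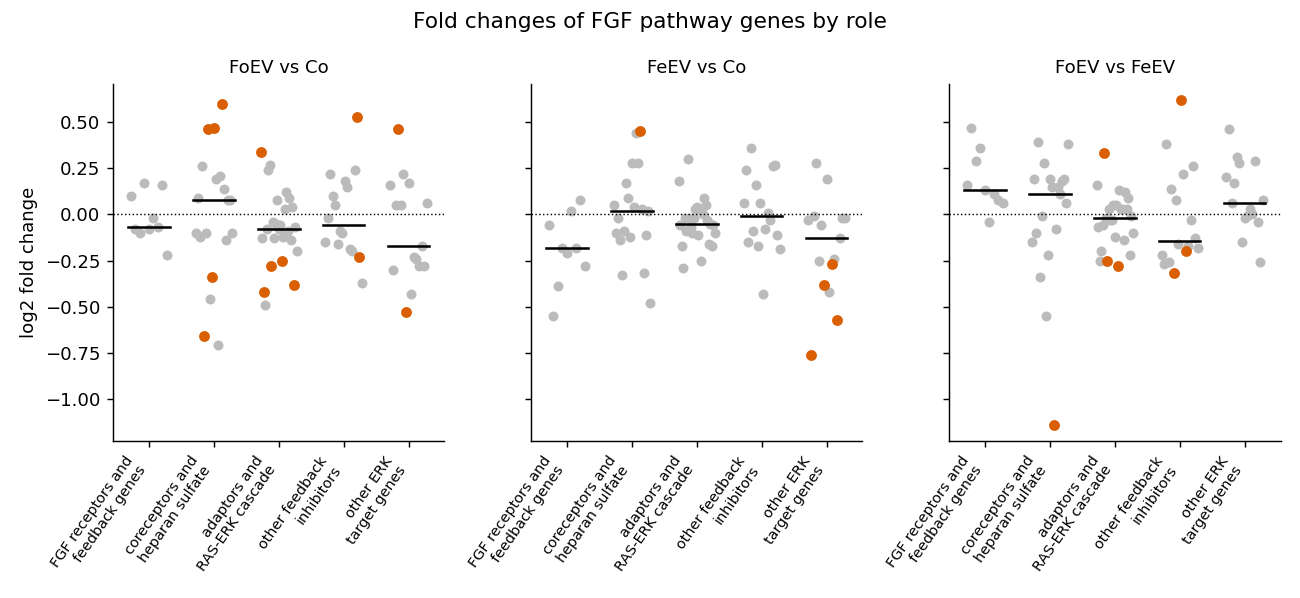
Log2 fold changes (vertical axis) of the tested pathway genes by role (horizontal axis) in the 3 comparisons. Orange points have an unadjusted edgeR p under 0.05, grey points do not, and black lines are list medians. The receptors and feedback genes in the first column hold 0 orange points in each comparison, and no gene passed the adjusted threshold.

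Among 16 further feedback inhibitors, 2 had an unadjusted p under 0.05 for FoEV treatment vs. Co. SPATA2, listed here among the inhibitors but known mainly as a partner of the deubiquitinase CYLD, had 17.7 to 21.1 CPM in Co, 21.4 to 25.7 in FeEV and 21.5 to 39.7 in FoEV, so that both oEV treatments lay above every Co library, beside 2.59% (FoEV) and 0.951% (FeEV) of all genes without overlap. Its log2 fold changes against Co were 0.53 in FoEV (SE 0.15, edgeR adjusted p = 0.135) and 0.27 in FeEV (SE 0.15, edgeR adjusted p = 1.0). SPRED1, the relative of SPRED2, was at 71.9 ± 10.8 CPM in FoEV and 84.8 ± 7.41 in Co (mean ± SD, 5 libraries each; log2 fold change -0.23, edgeR adjusted p = 0.312), the opposite sign to the 0.16 of SPRED2. SPRY2, the Sprouty gene next to SPRY4 in the list, had a log2 fold change of -0.37 (SE 0.22, edgeR adjusted p = 0.446) beside the -0.22 of SPRY4.

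DUSP7, a phosphatase of the same ERK-specific group as DUSP6, differed by 0.10 for FoEV treatment vs. Co and by 0.36 for FeEV treatment vs. Co (SE 0.23 for both, edgeR adjusted p = 0.86 and 1.0). IL17RD, a membrane inhibitor of FGF receptors also called SEF, was at 46.8 ± 3.85 CPM in FoEV and 58.3 ± 6.39 in FeEV (SD, n = 5; log2 fold change -0.32, edgeR adjusted p = 0.497). PEA15, which holds ERK in the cytoplasm, differed by 0.62 between the same treatments (SE 0.27, edgeR adjusted p = 0.563). None of these passed.

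A further 15 tested genes were transcription factors and early genes downstream of ERK, a list not limited to genes that ERK induces. Of them, 13 were lower and 2 higher in FeEV than in Co, with a median of -0.13, beside 49% of all genes lower. An unadjusted p under 0.05 was reached by 4, all of them lower, beside 2.32% of all genes lower at that threshold. These were EGR1, an immediate early transcription factor (log2 fold change -0.76, edgeR unadjusted p = 0.0478), IER3, an early survival gene (-0.57, unadjusted p = 0.0218), ETS2, an ETS-family factor (-0.38, unadjusted p = 0.0383), and FOSL2, an AP-1 subunit (-0.27, unadjusted p = 0.038). Their edgeR adjusted p was 1.0 each. FOSL2 had 42.1 to 52.1 CPM in Co and 31.5 to 40.9 in FeEV without overlap, beside 0.951% of all genes. In FoEV treatment vs. Co, ETS2 was at 19.3 ± 5.02 and 28.1 ± 3.54 CPM (SD, n = 5), a log2 fold change of -0.53 (SE 0.17, edgeR adjusted p = 0.165). ELK4, an ETS-family partner of SRF, differed by 0.46 in the other direction (SE 0.19, edgeR adjusted p = 0.257). Between oEV treatments the smallest p were those of ETS1 (0.28, edgeR unadjusted p = 0.141) and IER3 (0.29, edgeR unadjusted p = 0.207).

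Lineage genes are given beside these values because, in whole embryos, fewer cells of a lineage and less mRNA per cell cannot be told apart. NANOG, the epiblast factor, had 90.3, 77.9, 46.0, 93.4 and 90.6 CPM in Co, 38.1, 40.1, 63.5, 49.6 and 66.7 in FeEV and 22.7, 50.0, 67.7, 45.3 and 37.3 in FoEV. Its log2 fold change was -0.84 for FoEV treatment vs. Co (SE 0.26, edgeR adjusted p = 0.178) and -0.62 for FeEV treatment vs. Co (edgeR adjusted p = 1.0), with 3 of 5 FoEV libraries below every Co library. For FoEV treatment vs. Co, NANOG passed in the robust dispersion test (adjusted p = 0.00669) and with DESeq2 (adjusted p = 0.0399), beside 311 and 138 of all 10832 genes. SOX2, another epiblast factor, differed by -0.03 for FoEV treatment vs. Co and by -0.32 for FeEV treatment vs. Co (edgeR adjusted p = 0.969 and 1.0). Of the 6 tested epiblast markers, 3 were higher and 3 lower in FoEV than in Co, beside 52.3% of all genes higher. The higher ones included UTF1 at 0.43 and POU5F1 at 0.21 (edgeR adjusted p = 0.461 and 0.368). In FeEV treatment vs. Co, 1 was higher and 5 lower, beside 49% of all genes lower. The summed level of the 7 epiblast markers ran from 290 to 385 CPM in Co, 276 to 353 in FeEV and 266 to 436 in FoEV, with all 7 markers present in each treatment.

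GATA6, the early hypoblast factor that FGF signalling maintains in the mouse, had 433 ± 37.1 CPM in Co, 400 ± 35.9 in FeEV and 424 ± 47.2 in FoEV (mean ± SD, 5 libraries each; edgeR adjusted p = 0.909 for FoEV treatment vs. Co). SOX17, a later hypoblast factor, stayed at 2 to 14 reads per library. Of the 7 tested hypoblast markers, 2 were higher and 5 lower in FoEV than in Co, beside 47.7% of all genes lower. The lower ones included HNF4A at -0.53 and PDGFRA at -0.46 (edgeR adjusted p = 0.361 and 0.438). FN1 alone had an unadjusted p under 0.05 (-0.29, edgeR unadjusted p = 0.0496, adjusted p = 0.331). In FeEV treatment vs. Co, 1 was higher and 6 lower, beside 49% of all genes lower. The 8 hypoblast markers summed to 6550 to 9090 CPM in Co, 5740 to 8130 in FeEV and 4850 to 7530 in FoEV, and the 10 trophectoderm markers to 6680 to 9060, 7350 to 10900 and 8600 to 11600 CPM. Most of the hypoblast sum was FN1, with means of 6740, 6160 and 5510 CPM in Co, FeEV and FoEV. Most of the trophectoderm sum was the keratins KRT8 (4230, 4760 and 5040 CPM) and KRT18 (2660, 3190 and 3890 CPM). The sums therefore say little about the other markers. GATA3 of the trophectoderm was higher in all 5 FoEV libraries (223 to 250 CPM) than in every Co library (192 to 217 CPM), beside 2.59% of all genes without overlap, with a log2 fold change of 0.19 (edgeR adjusted p = 0.238), while CDX2 differed by 0.21 with overlapping libraries (edgeR adjusted p = 0.649). Of the 8 tested trophectoderm markers, 7 were higher and 1 lower in FoEV than in Co, beside 52.3% of all genes higher. An unadjusted edgeR p under 0.05 was reached by 4, all higher, beside 8.18% of all genes higher at that threshold. The lower marker was TFAP2A, at 17.3 ± 6.67 CPM in FoEV and 24.5 ± 7.21 in Co (log2 fold change -0.49, edgeR adjusted p = 0.444). KRT18, a keratin of the trophectoderm, was at 3890 ± 515 CPM in FoEV and 2660 ± 400 in Co (mean ± SD, 5 libraries each; log2 fold change 0.55, edgeR adjusted p = 0.0818). KRT18 passed in edgeR without a filter (adjusted p = 5.72e-06), with the replicate block (0.0126) and without FoEV replicate 2 (0.041), in the robust dispersion test (0.00378) and with DESeq2 (0.0107). Over all genes, 173 of 25470 passed without a filter, and 57, 58, 311 and 138 of 10832 passed in the others, in the same order. The replicate block follows the numbers of the titles, which were not taken as pairs. With the library number as a block, KRT18 did not pass. The part of these lineage values in the levels of the FGF genes was not tested.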

How the data were processed

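Total RNA of embryo pools was sequenced in 15 libraries, and the authors deposited read counts per gene, without normalization, before and after a filter on low counts. Per the methods, ARS-UCD1.2 was the genome, NCBI the source of gene models and QuasR Qcount the counting tool, whereas the submitters' processing notes list Trim Galore 0.4.3.1, HISAT2 2.1.0 and featureCounts 1.6.3. How this was resolved is not given in the sources used here. The methods state a culture 1 day longer than the 7 days of the labels.

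Groups came from the sample titles. Symbols came from a RefSeq gene table of ARS-UCD2.0 by gene identifier (10709 of 10832 genes matched), and no coordinates or sequences were used. Counts were tested in edgeR 4.0.16 (R 4.3.3) with TMM factors, library sizes from the unfiltered table (2136713 to 4058887 counts), estimateDisp and the robust quasi-likelihood F test, in 1 fit over all libraries with treatment as the only factor and Benjamini-Hochberg adjustment over 10832 genes. CPM use the same scaling. Standard errors and 95% intervals were derived from the F statistic and its degrees of freedom. FGF4, absent from the filtered table, was compared by two-sided exact permutation over 252 assignments in Python 3.11.15. The script was checked on simulated counts. Library pairs of a treatment differed by more than sampling noise (chi-square of at least 3.73 per degree of freedom). Floors are 3 counts, and intervals of reads cover counting error only, because reads that carry no molecular identifier can be copies of 1 molecule.

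The members, the lists by role and the alternatives, among them DESeq2 1.42.0, were chosen with earlier results of these data known. Named list genes are those with the 2 smallest p per list and comparison, the 3 genes most like FGFR2, DUSP6 and ETV5, and 6 lineage genes. SHOC2, HS2ST1, EGR1, FGF2, FGF9, FGF11, FGF12, the carry-over markers, SPRY2, KRT18, the other lineage markers beyond those 6 and further values of named genes were added after their values were seen.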

Additional observations from a re-analysis of the deposited data

Results flagged for a closer look

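In 102 groups of 5 libraries (34 of the tested genes named here, 3 treatments), 9 single libraries stood apart by Dixon's criterion at a ratio above 0.71, and chance would flag about 1 group in 20. Of the FGF genes, DUSP6 was at 40.2 CPM in FeEV replicate 1 beside 21.3 in the next library, and ETV5 at 10.3 CPM in the same library beside 7.13. That library had 136 reads on DUSP6 and 35 on ETV5. Without it, the log2 fold change of DUSP6 for FeEV treatment vs. Co was -0.33 (edgeR unadjusted p = 0.252).

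Among the other named genes, FLRT3 was at 31.9 CPM in FoEV replicate 1 beside 57.5 in the next library, FRS2 at 53.5 CPM in FoEV replicate 2 beside 38.4, and GRB2 at 91.6 CPM in FoEV replicate 4 beside 63.0. FOSL2 was at 31.5 CPM in FeEV replicate 5 beside 39.7 and at 49.6 CPM in FoEV replicate 4 beside 39.2. SOX2 was at 39.4 CPM in FeEV replicate 2 beside 24.8, and CDX2 at 55.3 CPM in FeEV replicate 5 beside 33.4.

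For FGF4 the statistic of the exact permutation test between oEV treatments was -0.48 (FoEV minus FeEV mean of log2(CPM + 1), exact p = 0.00794, adjusted p = 0.0238), which does not measure the size of a difference at these counts, with 6 reads in FeEV, 1 in Co and 0 in FoEV, although FoEV libraries held the most reads in total. GRB2 lay below the Co mean in all 5 FeEV libraries and above it in all 5 FoEV libraries, and its difference of 0.33 between oEV treatments did not pass (edgeR adjusted p = 0.496).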

How the results depend on the processing

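For the 9 tested FGF genes, 0 were called in each comparison under the analysis given and under all 25 alternatives (10 settings and 15 that left out 1 library), so no call depended on them. Of 675 log2 fold changes recomputed, 641 kept their sign and 34 reversed, and 5 had an unadjusted p under 0.05. The smallest was 0.0155 in edgeR for ETV4 in FeEV treatment vs. Co without FeEV replicate 3 (log2 fold change -0.81). For FoEV treatment vs. Co, reversed values were, with the library number as a block, 0.08 for FGFR3, 0.09 for FGFR4, 0.09 for SPRY4 and 0.17 for ETV4, with counts thinned to equal depth (added after seeing the data) 0.05 for FGFR3, 0.02 for ETV4 and 0.11 for ETV5, and with the robust dispersion test 0.05 for FGFR3. Elsewhere they were 0.14 for FGFR1 in FeEV treatment vs. Co with the library number as a block and -0.05 for SPRED2 between oEV treatments with thinned counts. Leaving out 1 library for FoEV treatment vs. Co gave FGFR1 -0.07 to 0.33, FGFR2 -0.22 to 0.04, FGFR3 -0.09 to 0.10, FGFR4 -0.15 to 0.03, DUSP6 -0.13 to 0.28, ETV4 -0.18 to 0.12 and ETV5 -0.28 to 0.12. For FeEV treatment vs. Co it gave FGFR3 -0.04 to 0.14 and DUSP6 -0.33 to 0.03, and between oEV treatments FGFR3 -0.11 to 0.06, SPRY4 -0.09 to 0.21, DUSP6 -0.07 to 0.43 and SPRED2 -0.03 to 0.16. The cause was not tested.

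Of the 75 other pathway genes, 0 were called for FoEV treatment vs. Co, against 1 without a filter (FLRT3), 1 with DESeq2 (FLRT3) and 6 with the robust dispersion test (ETS2, NDST2, SHOC2, HS2ST1, FLRT3 and FRS2). Leaving out 1 library gave 0 to 2, the 2 being SHOC2 and FRS2 without FoEV replicate 2. Over all genes, the 1 call for FoEV treatment vs. Co became 311 with the robust dispersion test, 138 with DESeq2, 173 without a filter, 57 with the replicate block, 12 with the library number block, 5 with those 2 treatments only and 2 with thinned counts. Leaving out 1 library gave 0 to 58, with 58 without FoEV replicate 2, 14 without FoEV replicate 3, 7, 5 and 2 without FeEV replicates 5, 2 and 3, 4 without Co replicate 2, and 0 without Co replicates 3 or 4 or FoEV replicates 1, 4 or 5. For both other comparisons it gave 0 to 1. For FeEV treatment vs. Co the 0 calls became 6, 1 and 13 in the first 3 of these, and between oEV treatments 31, 3 and 22, with 1 under the library number block.

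Libraries were matched by the replicate number of their titles, and their deviations from the treatment means were correlated. The lowest and mean value were -0.291 and 0.0344 for FoEV treatment vs. Co, -0.214 and 0.138 for FeEV treatment vs. Co and 0.0134 and 0.186 between oEV treatments. Means for other replicate numbers were -0.00844, -0.0343 and -0.0464, and 1, 2 and 2 of 5 libraries were best with their own number. The replicate numbers are not the library numbers of the count columns, so this check does not cover pairing by library number. The paper's discussion states that fresh and frozen oEVs came from the same oviducts, but no source ties these to the replicate numbers, which were not taken as pairs. With the replicate block, 0 FGF genes and 0 other pathway genes were called. FGF4 kept its permutation p with a pseudocount of 0.25, and without 1 library p was 0.00794 to 0.0397 for FeEV treatment vs. Co. At 9 to 57 reads per library, counting error limits FGFR1, ETV4 and ETV5.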
